A study of Homo sapiens with 6 samples.

Results

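Expression of UNC5B and 8 further genes of netrin signalling was examined in Hep-G2 cells depleted of calmegin. The 9 genes were taken by name from the 58735 genes of the table and are the netrin receptors UNC5A, UNC5B, UNC5C, DCC and NEO1, the ligands NTN1 and NTN4, the death-domain protein UNC5CL, which resembles UNC5 receptors, and the kinase DAPK1. Of these, 5 passed the expression filter and were tested among 13074 genes, and 4 lay below it. Hep-G2 is an established human liver cancer line, labelled as hepatocytes from hepatocellular carcinoma. Cells carried a lentiviral short hairpin RNA (shRNA) against CLGN, labelled as CLGN knock down (sh-CLGN, n = 3), or a hairpin that served as negative control, labelled as wild type (sh-NC, n = 3). Both groups had been transduced and selected with puromycin, and each rests on 1 hairpin. The product of CLGN, calmegin, is a chaperone that binds newly made glycoproteins in the endoplasmic reticulum. Whether the libraries of a group came from separate cultures was not stated, so p-values measure the spread between these libraries, which may be technical.

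Netrins are secreted, laminin-related proteins that guide axons and act on adhesion, survival and vessel growth in other tissues. The receptors DCC and neogenin (NEO1) belong to 1 family of the immunoglobulin superfamily, and the UNC5 receptors to another. DCC and the UNC5 receptors are known as dependence receptors: when their ligand is absent they can trigger apoptosis, and in UNC5B this runs through an intracellular death domain to which DAPK1 can bind. Neogenin is also the receptor of the repulsive guidance molecules, among them hemojuvelin, through which it takes part in iron regulation in the liver.

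The sequences on which the agent and the UNC5B transcript rest are given first. The hairpin matched a 19-base stretch of the CLGN coding sequence, at chr4:140392328-140392346 on the minus strand of GRCh38, in exon 13 of 15 of CLGN-201 and exon 14 of 16 of CLGN-202. Capitals mark the bases that hold the 3 heptamers opposite guide bases 1 to 9, if the guide strand is exactly complementary to this stretch.
CLGN hairpin target: cgacatatgtATACCACAA
The UNC5B primers that the study designed for quantitative PCR show which part of the transcript it could measure. The forward primer lay in exon 5 at chr10:71286736-71286755 and the reverse primer crossed from exon 5 into exon 6, within 71286854 to 71287601, both in the coding sequence and in both annotated UNC5B transcripts, around an amplicon of 138 bases.
UNC5B forward primer: CAACTTCCTGCTCACCATCG
UNC5B reverse primer: TTCACGTAGACGATGACGGT
The 3′ untranslated region (3′ UTR) of UNC5B-201 held 2 of the heptamers complementary to the hairpin guide, in capitals here, at chr10:71299842-71299848 and chr10:71300938-71300944 on the plus strand.
UNC5B match at UTR base 565: aacaccaaaACCACAAgggaaaaga
UNC5B match at UTR base 1661: ggacagcacATACCACccccaccca
The first pairs with guide bases 1 to 7 and was found in 14.3% of 10909 tested genes with an annotated 3′ UTR of at least 50 bases. The other pairs with guide bases 3 to 9 and was found in 9.69% of them. The heptamer opposite guide bases 2 to 8, found in 13.1%, did not occur in the UNC5B 3′ UTR, and 25.8% of these genes held any of the 3. UNC5A and UNC5C held 1 match each and DCC 5, and NEO1, NTN1, NTN4, UNC5CL and DAPK1 held none. These matches are a description of the sequence.

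Promoters are shown for NEO1 and NTN4, a receptor that was lower and a ligand that was higher in sh-CLGN. They span 250 bases before to 50 bases after the annotated start (RefSeq, GRCh38.p14). Of the 9 genes 7 matched an entry, and UNC5B and NTN1 did not. The NEO1 promoter lay at chr15:73051652-73051951 on the plus strand and the NTN4 promoter at chr12:95791106-95791405 on the minus strand. Capitals mark motif matches on either strand.
NEO1 promoter: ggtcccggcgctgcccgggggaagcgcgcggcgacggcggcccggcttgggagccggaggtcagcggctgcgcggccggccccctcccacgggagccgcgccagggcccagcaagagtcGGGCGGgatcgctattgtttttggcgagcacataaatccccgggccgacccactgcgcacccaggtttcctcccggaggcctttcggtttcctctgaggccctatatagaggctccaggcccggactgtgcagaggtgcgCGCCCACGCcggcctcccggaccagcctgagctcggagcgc
NTN4 promoter: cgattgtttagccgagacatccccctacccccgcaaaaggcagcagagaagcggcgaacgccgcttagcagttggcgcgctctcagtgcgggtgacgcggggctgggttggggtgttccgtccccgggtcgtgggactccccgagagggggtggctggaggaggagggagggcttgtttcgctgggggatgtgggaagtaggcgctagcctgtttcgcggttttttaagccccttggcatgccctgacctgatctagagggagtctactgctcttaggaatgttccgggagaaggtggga
The NEO1 promoter was 72.7% GC with 35 CpG, and held 1 GC box (GGGCGG) and 1 EGR1 site (GCGTGGGCG), motifs found in 45.0% and 0.795% of 35116 promoters. The NTN4 promoter was 62.3% GC with 21 CpG and held neither of these letters. Neither promoter held those of a CCAAT box (CCAAT, 34.6% of promoters), a TATA box (TATAAA, 11.5%), an AP-1 site (TGACTCA, 4.95%) or a cAMP response element (TGACGTCA, 1.85%).

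The libraries held 14955816 to 16244639 reads on genes, and FPKM (fragments scaled to gene length and library size) took steps of 0.0589 to 0.0717 per read for a 1-kb gene. CLGN stood at 24.1, 21.0 and 26.1 FPKM in sh-NC and 9.48, 8.88 and 8.60 FPKM in sh-CLGN, or 37.8% of the control mean, with a log2 fold change of -1.31 (SE 0.081, limma adjusted p = 8.35e-06). Differences between the groups were widespread: 65.8% of tested genes passed an adjusted p of at most 0.05, 39% lower and 26.7% higher in sh-CLGN, 6.28% passed both that and a log2 fold change of 1 or more in size, and 70.2% had library values that did not overlap between the groups. The median log2 fold change of all tested genes was -0.08. All 9 hepatocyte markers were expressed, with summed levels of 7069 to 7306 FPKM in sh-NC and 7171 to 7635 FPKM in sh-CLGN. Of these markers 3 rose, 5 fell and 1 did not pass, among them AFP at 1.42 times, ALB at 53.6% and TF at 32.2% of the control mean. Summed levels of 7 fibroblast markers were 6.70 to 8.19 FPKM in sh-NC and 47.4 to 49.0 FPKM in sh-CLGN. Of these sums, COL1A2 alone gave 3.86 to 4.85 FPKM and 38.3 to 39.4 FPKM. In sh-CLGN 5 of 5 tested members were higher, PDGFRB at 1.30 times the control mean. Of these 5, COL1A1, COL3A1 and LUM passed the expression filter only through the sh-CLGN libraries, so that the count is a description only, and THY1 and DCN had 0 or 1 reads in each library.

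Among the receptors, UNC5B was the most abundant and was lower in sh-CLGN, as was NEO1, while DCC, UNC5A and UNC5C were barely detected. Among the ligands, NTN4 was higher in sh-CLGN and NTN1 was low in both groups. UNC5CL and DAPK1 were also higher. All 5 tested genes passed the adjusted p, 2 lower and 3 higher, beside 65.8% of tested genes. Of the 5, UNC5B and NTN4 passed both thresholds, beside 6.28% of tested genes. NTN4 passed the expression filter only through the sh-CLGN libraries, and UNC5CL through these and 1 sh-NC library, so that both counts are a description only.

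**Figure D1:**
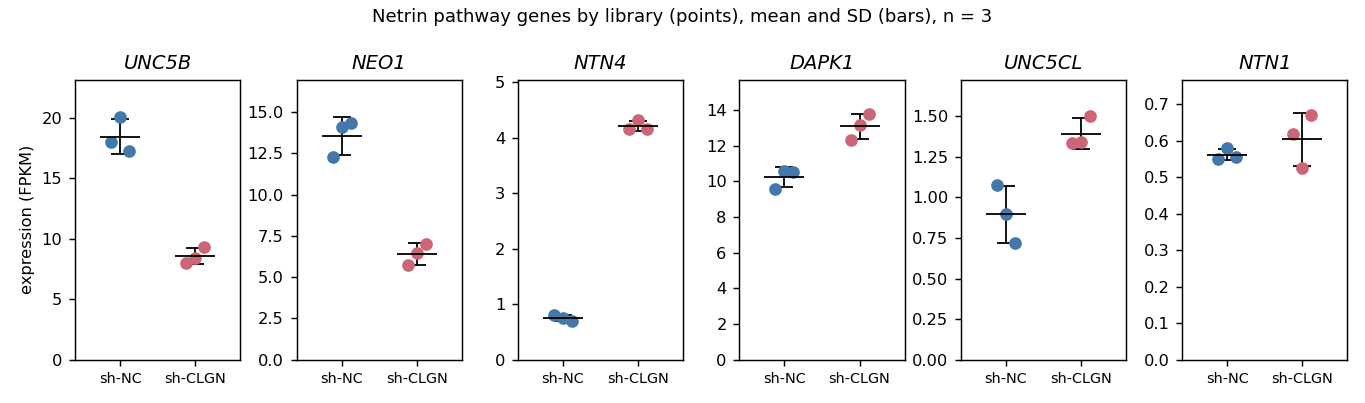
Expression in FPKM (vertical axes, each from 0) of the 6 genes with the most signal in the 3 sh-NC (blue) and 3 sh-CLGN (red) libraries. Points are libraries, and black bars are the mean and SD. UNC5B and NEO1 fell to 46.5% and 47.2% of the control mean, NTN4 stood at 4.16 to 4.32 FPKM against 0.698 to 0.809 FPKM, and the NTN1 libraries overlapped.

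UNC5B (ENSG00000107731, chr10:71212570-71302864, plus strand) stood at 18.0, 20.1 and 17.3 FPKM under the control hairpin (replicates 1 to 3) and at 8.005, 8.44 and 9.29 FPKM under the CLGN hairpin (replicates 1 to 3). Every sh-NC library lay far above every sh-CLGN library. The means were 18.5 ± 1.45 FPKM and 8.58 ± 0.654 FPKM (SD, n = 3), from 1719 to 2005 reads per control library and 929 to 1026 per sh-CLGN library. On the log2(FPKM + 1) scale UNC5B fell by 1.02 (SE 0.075, 95% interval -1.20 to -0.85, limma adjusted p = 1.69e-05), or -0.95 relative to the median of all tested genes. It thus passed both thresholds and ranked 388 of 13074 from the lowest fold change. In level, it stood at percentile 78.4 of the tested genes in sh-NC and 62.1 in sh-CLGN. The fold threshold was met narrowly: without sh-NC replicate 2 the change was -0.96 and without sh-CLGN replicate 1 it was -0.98, both past the adjusted p. Fewer cells that express a gene and less of its RNA per cell cannot be told apart in these bulk libraries. Summed levels of 6 markers of endothelial cells, in which UNC5B is known to act, were 3.36 to 3.67 FPKM per control library and 2.38 to 2.65 FPKM per sh-CLGN library. Nearly all of this was PECAM1, at 3.06 to 3.31 FPKM and 2.27 to 2.58 FPKM. CDH5 reached at most 0.338 FPKM, VWF and TEK had 0 to 3 reads per library, and KDR and EMCN had 0 reads. Whether endothelial cells were present, and their part in the UNC5B value, was not tested. The antisense gene UNC5B-AS1 within it had 0 to 2 reads in each library.

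NEO1 (ENSG00000067141, chr15:73051710-73305206, plus strand), which encodes neogenin, had 12.2, 14.1 and 14.3 FPKM in sh-NC and 5.72, 6.48 and 6.997 FPKM in sh-CLGN. The groups did not overlap. Means were 13.5 ± 1.13 FPKM and 6.40 ± 0.641 FPKM (SD, n = 3), and NEO1 fell by 0.98 on the log2 scale (SE 0.085, 95% interval -1.17 to -0.78, limma adjusted p = 3.82e-05), just short of the fold threshold, which it passed when sh-NC replicate 1 (-1.04) or sh-CLGN replicate 3 (-1.03) was left out. It ranked 454 from the lowest fold change.

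The abundance of UNC5B relative to NEO1 was 1.37 ± 0.142 in sh-NC against 1.34 ± 0.0501 in sh-CLGN (SD, n = 3), where values of the groups overlapped (two-sided exact permutation test, p = 0.9, adjusted p = 0.9 over 5 ratios). The 3 against 3 libraries cannot give a p below 0.1. Levels of UNC5B, NEO1, DCC, UNC5A and UNC5C summed to 32.1 ± 1.96 FPKM in sh-NC against 15.1 ± 1.29 FPKM in sh-CLGN (SD, n = 3). Within the UNC5A, UNC5B and UNC5C sum, UNC5B took 99.8% ± 0.227 in sh-NC against 99.0% ± 0.259 in sh-CLGN (SD, n = 3).

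The other receptors rested on few reads. UNC5C (ENSG00000182168, chr4:95162504-95549206, minus strand) had 0, 2 and 0 reads under the control hairpin and 15, 8 and 8 reads under the CLGN hairpin. Every sh-CLGN library exceeded every control, at mean levels of 0.00427 FPKM and 0.0583 FPKM. The ratio of library-size-scaled reads, 31 against 2 in all, was 13.8 with an exact 95% interval of 3.51 to 119 that covers counting error only. UNC5C lay below the expression filter. Voom, a limma method, was run on recovered reads of genes with at least 10 reads over all libraries. UNC5C reached 10 only through the sh-CLGN libraries, so that its voom values are a description only. In voom its log2 fold change was 3.44 (SE 0.851, adjusted p = 0.00144). Without a filter, limma on log2(FPKM + 1) gave it an adjusted p of 0.0777. Of the 9013 genes in the voom fit that were below the FPKM filter, 25.1% were called higher and 4.57% lower. Their median log2 fold change was 0.62, so that a rise was frequent among such genes. These too could reach 10 reads through a single group. Genes with a read numbered 23578 to 23793 per sh-NC library and 26814 to 27006 per sh-CLGN library.

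UNC5A (ENSG00000113763, chr5:176810477-176880898, plus strand) had 5, 2 and 0 reads under the control hairpin and 1, 1 and 4 under the CLGN hairpin, and the groups overlapped. Its ratio of 0.762 had an exact interval of 0.212 to 2.65, so neither a rise nor a fall was detectable at this depth. DCC (ENSG00000187323, chr18:52340172-53535903, plus strand) had 0, 0 and 1 reads under the control hairpin and 0, 3 and 2 under the CLGN hairpin, at or under the floor of 3 reads in each library, and no fold is given. The remaining UNC5 receptor, UNC5D, had 0 reads in each library.

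**Figure D2:**
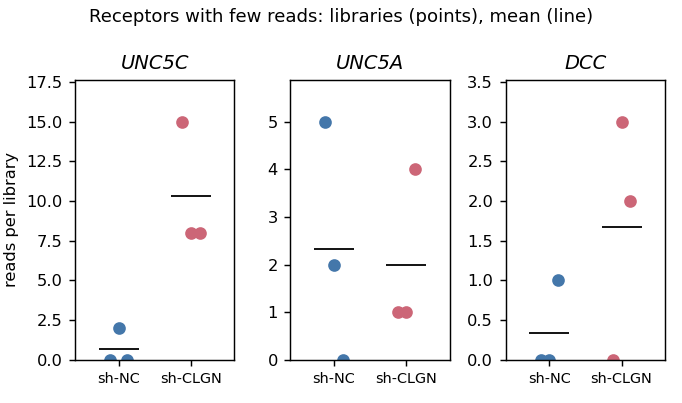
Reads per library (vertical axes) of the 3 receptors near the detection limit, in sh-NC (blue) and sh-CLGN (red). Points are libraries and black lines are means. UNC5C had 8 to 15 reads in sh-CLGN against 0 to 2 in sh-NC, while UNC5A and DCC libraries overlapped between the groups.

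NTN4 (ENSG00000074527, chr12:95657807-95791152, minus strand) encodes netrin-4, a netrin related to laminin beta chains that binds basement membrane laminin. It had 0.809, 0.756 and 0.698 FPKM in sh-NC and 4.16, 4.32 and 4.16 FPKM in sh-CLGN, on 45 to 47 reads and 280 to 295 reads per library. The groups lay far apart and varied little within, at means of 0.754 ± 0.0553 FPKM and 4.21 ± 0.0914 FPKM (SD, n = 3), a ratio of 5.59. The log2 fold change was 1.57 (SE 0.071, 95% interval 1.41 to 1.74, limma adjusted p = 2.52e-06), past both thresholds and at percentile 99.3 of all tested genes. NTN4 was among the tested genes only through its sh-CLGN libraries, so that this p and percentile are a description only. Without the expression filter its limma adjusted p was 7.02e-05. Since 1 is added to each value, this scale understates the change of a gene at this level: with a pseudocount of 0.1 the log2 fold change was 2.34, and in voom it was 2.47. The tested fibroblast markers given above, mostly COL1A2 by level, were also higher in sh-CLGN, while THY1 and DCN had 0 or 1 reads in each library. Whether fibroblasts were present, and their part in the NTN4 value, was not tested. PGAM1P5, a pseudogene on the opposite strand that overlaps NTN4, had 0 reads in the sh-NC libraries and 6, 2 and 4 reads in the sh-CLGN libraries.

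NTN1 (ENSG00000065320, chr17:9021542-9244000, plus strand) encodes netrin-1, the best known ligand of DCC and UNC5 receptors. It had 0.550, 0.579 and 0.557 FPKM in sh-NC and 0.619, 0.526 and 0.670 FPKM in sh-CLGN, below the expression filter in each library. The groups overlapped. In the fit with genes of a mean of at least 0.1 FPKM, its log2 fold change was 0.04 (95% interval -0.15 to 0.22, limma adjusted p = 0.723), and the ratio of scaled reads was 1.08 with an exact interval of 0.866 to 1.34.

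The ratio of NTN4 to NTN1 levels was 1.34 ± 0.113 in sh-NC against 7.05 ± 1.04 in sh-CLGN (SD, n = 3), higher in 3 of 3 sh-CLGN libraries (two-sided exact permutation test, p = 0.1, the smallest possible, adjusted p = 0.125). With both ligands summed, the level was 1.32 ± 0.0546 FPKM in sh-NC against 4.82 ± 0.0353 FPKM in sh-CLGN (SD, n = 3). Set against the receptor sum, the NTN1 and NTN4 transcripts amounted to 0.0412 ± 0.00314 in sh-NC against 0.321 ± 0.0256 in sh-CLGN (SD, n = 3). Other ligands of these receptors, reported below, were left out of this ratio. Among them were FLRT3, at 27.4 FPKM in sh-NC and 19.8 FPKM in sh-CLGN, and HJV, at 1.25 FPKM and 10.3 FPKM. The ratio therefore does not describe all ligands of these receptors. NTN4 to UNC5B stood at 0.0410 and 0.493, and NTN4 to NEO1 at 0.0562 and 0.663. Both ratios were likewise separated (two-sided exact permutation test, p = 0.1 each, adjusted p = 0.125). In sh-CLGN every NTN4 value was higher and every UNC5B and NEO1 value lower, so that this separation was fixed in advance. The outcome for NTN4 to NTN1 was fixed as well, since the NTN4 groups lay apart far beyond the spread of NTN1. These tests only restate the differences of the single genes.

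DAPK1 (ENSG00000196730, chr9:87497228-87708633, plus strand) encodes death-associated protein kinase, a calmodulin-regulated serine/threonine kinase. It had 9.58, 10.6 and 10.5 FPKM in sh-NC and 12.3, 13.2 and 13.8 FPKM in sh-CLGN. The groups did not overlap. Means were 10.2 ± 0.571 FPKM and 13.1 ± 0.716 FPKM (SD, n = 3), a ratio of 1.28, and the log2 fold change was 0.33 (SE 0.063, 95% interval 0.18 to 0.47, limma adjusted p = 0.00226). The ratio of DAPK1 to UNC5B was 0.557 ± 0.0454 in sh-NC against 1.53 ± 0.0412 in sh-CLGN (SD, n = 3; two-sided exact permutation test, p = 0.1, adjusted p = 0.125). The libraries of both genes were separated, in opposite directions, so that the outcome of this test was fixed in advance.

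UNC5CL (ENSG00000124602, chr6:41026911-41039217, minus strand) encodes a membrane protein with the ZU5 and death domains of the UNC5 receptors that signals to NF-κB. It had 1.07, 0.895 and 0.721 FPKM in sh-NC and 1.33, 1.34 and 1.501 FPKM in sh-CLGN. The groups did not overlap, at means of 0.897 ± 0.176 FPKM and 1.39 ± 0.0940 FPKM (SD, n = 3), on 35 to 47 and 69 to 76 reads per library. The log2 fold change was 0.34 (SE 0.101, 95% interval 0.11 to 0.57, limma adjusted p = 0.0180). The call was lost without sh-CLGN replicate 3 (0.31, adjusted p = 0.0627), without the expression filter (0.34, adjusted p = 0.0598) and after quantile normalization (0.16, adjusted p = 0.185). OARD1, which overlaps UNC5CL on the same strand, had 342 to 436 reads per control library and 406 to 507 per sh-CLGN library, so that the UNC5CL values are uncertain.

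The order of levels differed between the groups. In sh-NC, UNC5B, NEO1 and DAPK1 followed each other with no overlap of libraries, and UNC5CL, NTN4 and NTN1 followed at under 1.1 FPKM, where the libraries of UNC5CL and NTN4 overlapped. In sh-CLGN, DAPK1 came first, followed by UNC5B, NEO1, NTN4, UNC5CL and NTN1, with no overlap between neighbours.

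Genes whose levels followed UNC5B most closely over the 6 libraries were ZHX2, ABL1, ESPL1, MAN2B1 and CELSR3, with Pearson r of log2(FPKM + 1) from 0.9995 to 0.9996. The libraries fall into 2 separate groups, so that these correlations largely restate the difference between the groups, and 21.8% of tested genes had r above 0.95. ESPL1, the cohesin-cleaving protease separase, was at 13.4 to 15.5 FPKM in sh-NC and 5.64 to 6.78 FPKM in sh-CLGN. ABL1, a tyrosine kinase, was at 48.8 to 55.7 FPKM and 26.1 to 29.1 FPKM. MAN2B1, a lysosomal mannosidase, was at 22.6 to 26.0 FPKM and 11.9 to 13.7 FPKM. ZHX2, a transcriptional repressor, was at 19.1 to 20.7 FPKM and 13.8 to 14.6 FPKM, and CELSR3, an adhesion receptor of axon guidance, at 1.94 to 2.16 FPKM and 0.880 to 1.04 FPKM.

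The pathway around these genes was followed in 6 lists of 68 genes, of which 43 were tested. Of the tested genes, 14 rose and 11 fell with the CLGN hairpin and 18 did not pass, beside 26.7% higher and 39% lower over all tested genes. Their median log2 fold change was 0.09, against -0.08 for all tested genes. The split between directions depended on the scaling: 21 were higher and 5 lower after TPM rescaling, and 21 higher and 4 lower after scaling by read totals, which moved the median of all tested genes by 0.11 and 0.16. Genes that passed the expression filter and are named below with a rise or fall kept direction and call under each scaling, the correction for GC content and with each library left out unless stated.

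Of 18 other ligands and receptors, 5 were tested, 2 were higher and 2 lower. HJV, which encodes hemojuvelin, a neogenin ligand and bone morphogenetic protein co-receptor, rose from 1.25 ± 0.104 FPKM to 10.3 ± 0.572 FPKM (SD, n = 3; log2 fold change 2.33, SE 0.069, limma adjusted p = 6.64e-07) and passed both thresholds. MCAM, an adhesion molecule and netrin-1 receptor, rose from 1.11 ± 0.199 FPKM to 1.79 ± 0.230 FPKM (0.40, adjusted p = 0.0103), a call lost after quantile normalization. FLRT3, a ligand of UNC5 receptors, fell from 27.4 ± 1.40 FPKM to 19.8 ± 0.263 FPKM (-0.44, adjusted p = 1.66e-04). ADORA2B, an adenosine receptor that can bind DCC, fell from 1.41 ± 0.176 FPKM to 0.834 ± 0.301 FPKM (-0.40, adjusted p = 0.0281), a call lost with TPM, with scaling by read totals and, at adjusted p from 0.0701 to 0.0859, without sh-NC replicate 1 or 2 or sh-CLGN replicate 2 or 3. CDON did not pass. MCAM reached 1 FPKM in 2 sh-NC and 3 sh-CLGN libraries, and ADORA2B in 3 sh-NC libraries and 1 sh-CLGN library. Each thus met the expression filter through the group where it was higher. Their calls, and the counts that hold them, are a description only.

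Below the expression filter, several ligands differed in the fit of genes with a mean of at least 0.1 FPKM, in which 43.1% of all genes passed, and other scalings were not run for them. RGMB, another neogenin ligand, fell from 0.952 ± 0.107 FPKM to 0.407 ± 0.0565 FPKM (log2 fold change -0.47, limma adjusted p = 0.00387). The UNC5 ligands FLRT1 and FLRT2 went opposite ways, FLRT1 from 0.727 FPKM to 0.293 FPKM (-0.42, adjusted p = 0.00682) and FLRT2 from 0.368 FPKM to 0.939 FPKM (0.50, adjusted p = 0.00180). Since 1 is added to each value, these log2 changes understate the ratios of sh-CLGN to sh-NC means. Those ratios were 0.427 for RGMB, 0.403 for FLRT1 and 2.55 for FLRT2. NTN5 did not pass. The coreceptors DSCAM and DSCAML1 and the netrin-related NTNG1 had 0 reads in each library.

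Of 21 cytoplasmic effectors of netrin receptors, 18 were tested, 7 were higher and 4 lower, at a median log2 fold change of 0.04. ENAH, which elongates actin filaments, rose from 18.3 ± 0.920 FPKM to 31.0 ± 1.36 FPKM (0.73, adjusted p = 2.21e-05), and WASL, an activator of actin branching, from 19.8 ± 1.59 FPKM to 29.9 ± 1.41 FPKM (0.57, adjusted p = 1.74e-04). TRIM67, a ubiquitin ligase that binds DCC, rose from 1.48 FPKM to 2.43 FPKM (0.47, adjusted p = 8.70e-04), and PTPN11, the phosphatase SHP2, from 30.8 FPKM to 37.7 FPKM (0.28, adjusted p = 0.00195). SRC, a kinase that phosphorylates netrin receptors, fell from 21.5 ± 0.932 FPKM to 11.6 ± 0.330 FPKM (-0.84, adjusted p = 8.73e-06). The kinases MAPK3 (-0.45, adjusted p = 0.00578) and PTK2 (-0.18, adjusted p = 0.0216) were also lower, but the PTK2 call was lost with TPM, quantile normalization, scaling by read totals and without sh-CLGN replicate 1 (adjusted p = 0.0513) or 2 (adjusted p = 0.0940) and MAPK3 lost its call after a correction for GC content.

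Of 6 genes of the death arm, 5 were tested, 2 were higher and 2 lower. CASP9, an initiator caspase, fell from 4.66 ± 0.175 FPKM to 3.67 ± 0.156 FPKM (-0.28, adjusted p = 0.00461), and PPP2R1B, the scaffold subunit of the phosphatase that activates DAPK1 at UNC5B, fell from 14.6 ± 0.249 FPKM to 10.9 ± 0.448 FPKM (-0.39, adjusted p = 3.16e-04). APPL1, an adaptor of DCC, rose from 2.92 FPKM to 3.56 FPKM (0.22, adjusted p = 0.0276). The CASP9 call was lost with TPM, read totals and the GC correction, and the APPL1 call after quantile normalization, the GC correction and without any library other than sh-NC replicate 3 (adjusted p from 0.0582 to 0.0808). XIAP did not pass, and MAGED1, an UNC5 partner, had 26 reads over the control libraries and 0 over the sh-CLGN libraries and was not tested.

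Of 6 relatives and regulators of DAPK1, 5 were tested, 2 were higher and 0 lower by limma. DAPK3, a related kinase, rose from 23.4 ± 2.41 FPKM to levels between 28.3 and 29.8 FPKM (0.30, adjusted p = 0.00793), and CUL3, the ligase scaffold that marks DAPK1 for degradation, from 5.98 ± 0.136 FPKM to 7.32 ± 0.162 FPKM (0.25, adjusted p = 0.00326), a call lost after the GC correction. DAPK2 was below the filter, at 0.446 FPKM and 0.807 FPKM, a ratio of 1.81 (0.32, adjusted p = 0.0140 in the fit of genes with a mean of at least 0.1 FPKM). Of 4 signalling partners of UNC5CL, 4 were tested and 1 passed: MYD88, the adaptor of Toll-like receptors, fell from 12.2 ± 0.440 FPKM to 10.04 ± 0.439 FPKM (-0.26, adjusted p = 0.00350), a call lost with TPM, quantile normalization, read totals and the GC correction. Of 13 other dependence receptors, 6 were tested. MET, the hepatocyte growth factor receptor, rose from 17.8 ± 1.24 FPKM to 29.4 ± 0.832 FPKM (0.69, adjusted p = 3.58e-05), while IGF1R fell from 7.26 ± 0.264 FPKM to 5.72 ± 0.190 FPKM (-0.30, adjusted p = 0.00206) and KREMEN1, a Dickkopf receptor, from 5.31 ± 0.531 FPKM to 4.26 ± 0.305 FPKM (-0.26, adjusted p = 0.0221). The IGF1R call was lost with read totals and the GC correction, and the KREMEN1 call with these, TPM and without sh-NC replicate 2 (adjusted p = 0.0669) or sh-CLGN replicate 2 (adjusted p = 0.0835). NTRK3, RET, EPHA4 and KIT had 0 reads in each library.

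**Figure D3:**
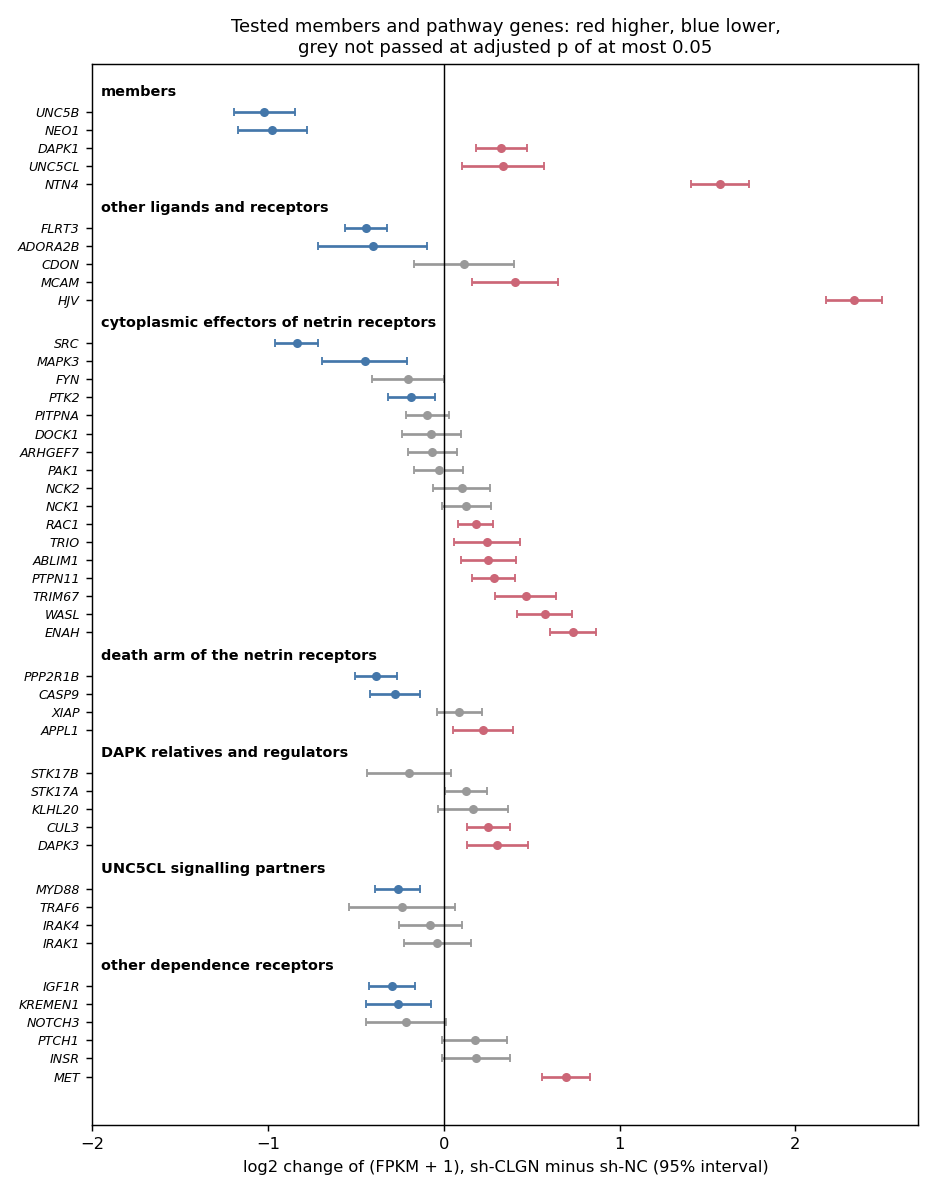
Log2 fold change of FPKM + 1, sh-CLGN minus sh-NC (horizontal axis), with its 95% interval, for the 5 tested genes of netrin signalling named at the top as members and the tested genes of the 6 pathway lists that are reported here. Red genes were higher, blue lower and grey did not pass an adjusted p of at most 0.05. HJV at 2.33 and NTN4 at 1.57 lie farthest to the right, and UNC5B at -1.02 and NEO1 at -0.98 farthest to the left.

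The directions of the 5 tested genes were the same under 13 alternative settings and with each library left out in turn. UNC5B ranged from -1.11 to -0.77 on the log2 scale over the alternatives and passed both thresholds in 9 of 13. It fell short of the fold threshold, while passing the adjusted p, with TPM (-0.96), quantile normalization (-0.85), read totals (-0.84) and the GC correction (-0.77). NEO1 ranged from -1.09 to -0.80 and passed both thresholds in 3 of 13, NTN4 from 1.48 to 2.47 and passed both in each, DAPK1 from 0.33 to 0.52, and UNC5CL from 0.16 to 0.65.

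**Figure D4:**
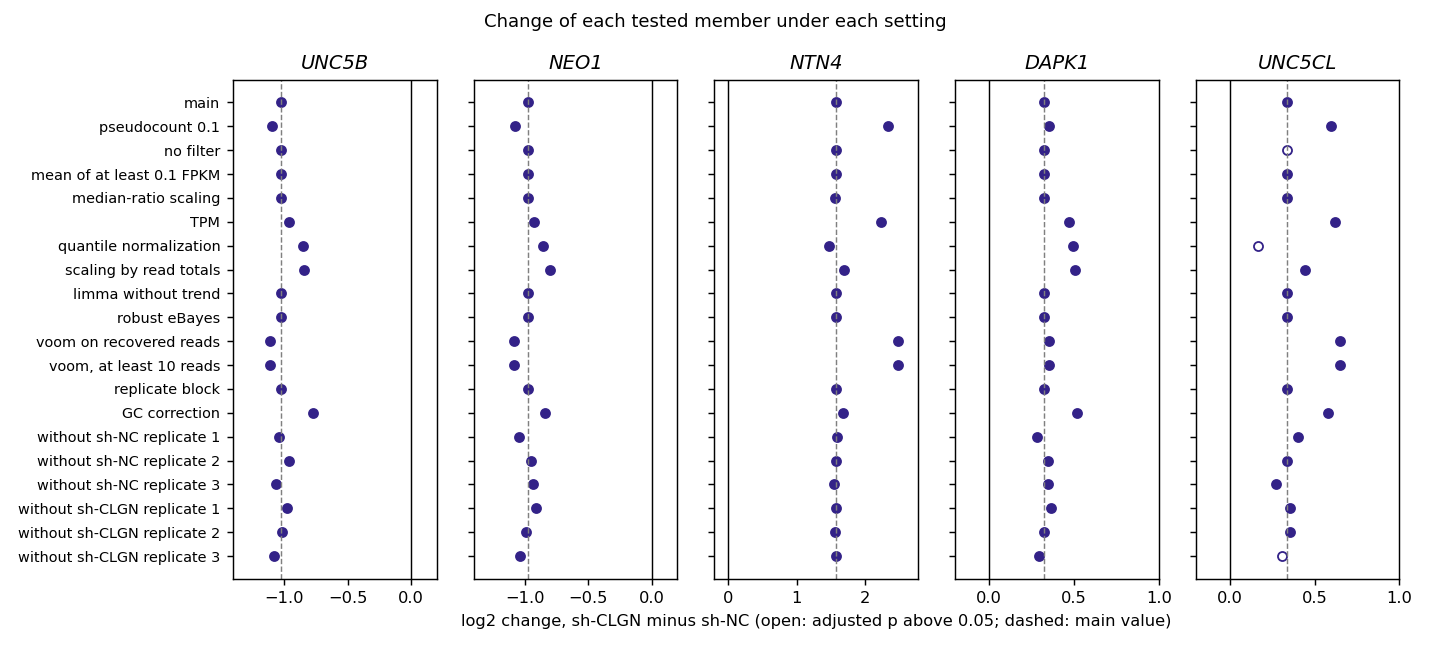
Log2 change, sh-CLGN minus sh-NC (horizontal axes, scales differ), of the 5 tested genes under the reported fit (main, dashed line), 13 alternatives and with each of 6 libraries left out. Filled points passed an adjusted p of at most 0.05 and open points did not. UNC5B and NEO1 stay below 0 and NTN4, DAPK1 and UNC5CL above 0 in each row, and the 3 open points all belong to UNC5CL.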

How the data were processed

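RNA was sequenced from 3 sh-NC and 3 sh-CLGN Hep-G2 libraries (NEBNext Ultra kit, per the labels). The authors deposited 1 table of FPKM per gene and library. The submitters' processing notes name HISAT2 2.0.5, featureCounts and GRCh38. The strand setting of counting is not given in the sources used here, so reads of overlapping genes may be shared. Positions of the 9 genes equalled GENCODE 29. Table columns were matched to the labels by name, KD standing for sh-CLGN.

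Multiplied by gene length, 100% of the values were whole multiples of 1 read (tolerance 0.01 of a read), so reads per gene could be recovered. Relative to the recovered totals, the authors had scaled by library sizes of 0.933 to 0.953 (sh-NC) and 1.07 to 1.08 (sh-CLGN). Reads carried no molecular identifiers, so intervals and the floor of 3 reads per library cover counting error only.

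The fit used limma 3.58.1 in R 4.3.3 (eBayes with trend) on log2(FPKM + 1), with no covariate, for genes that reached 1 FPKM in 3 or more libraries. Log2 fold changes of this fit are differences on that scale, which understate the ratio of means for genes at low levels. Tests were two-sided, and p-values were adjusted by Benjamini-Hochberg across all tested genes. Ratios between genes were compared with exact permutation tests. The procedure was tested on simulated data. Alternatives changed the pseudocount, filter, scaling, test, replicate block and libraries, and a GC correction (lowess span 0.3) was added after the data were seen. Sequences were read and plots drawn in Python 3.11.15 (pandas 2.3.3, numpy 2.4.6, matplotlib 3.10.9).

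The genes, lists and tests were chosen with earlier results of these data known. Named are all 9 genes, per pathway list and direction up to 4 genes with the smallest adjusted p and those past both thresholds, overlapping genes with at least 10 reads, and the 5 genes closest to UNC5B. Pathway genes below the filter, those at 0 reads and those that did not pass were named after their values were seen, as was UNC5B-AS1. Some genes that meet this rule are counted but not reported here.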

Additional observations from a re-analysis of the deposited data

How the results depend on the processing

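Of 133 alternative results, 130 were labelled unchanged, 3 lost the call and 0 reversed. For the 5 tested genes, unchanged means the same direction and side of the threshold. The 133 also hold the counts of genes past the adjusted p, which were judged only on staying near the reported count. The split of these counts between directions was not judged. The 3 lost calls were UNC5CL without a filter, after quantile normalization and without sh-CLGN replicate 3, as given above. The GC correction was chosen after seeing the data. With each library left out in turn, UNC5B ranged from -1.08 to -0.96, NEO1 from -1.04 to -0.91, NTN4 from 1.55 to 1.59, DAPK1 from 0.28 to 0.37 and UNC5CL from 0.27 to 0.40. The count of the 9 genes past the adjusted p was 4 to 6 over all settings, with UNC5C added in voom on all genes of 10 or more reads, and that of pathway genes 20 to 37. The number of all genes past both thresholds was 821 as reported, 694 after quantile normalization and 725 after the GC correction, but 1606 with a pseudocount of 0.1, 1426 with TPM, 1722 in voom on the same genes and 3845 in voom on genes with at least 10 reads. With the replicate number as a block (replicate block), UNC5B was at -1.02 (adjusted p = 3.10e-04), 5 of the genes and 24 pathway genes passed. Libraries with the same number did not deviate together (correlations of -0.02, -0.05 and -0.15), so the numbers were not taken to pair them. Depth limits UNC5A, UNC5C and DCC, for which 3 reads per library were taken as the floor. The cause of the differences between settings was not tested.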
